A study of Mus musculus with 2 samples.

Results

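The Notch receptor and ligand genes were described here in RNA of whole embryos of wild-type mice at E14.5. They were the 4 receptor genes Notch1, Notch2, Notch3 and Notch4 and the 5 ligand genes Dll1, Dll3, Dll4, Jag1 and Jag2, taken with every probe set that the array's annotation pairs with those symbols alone. The 9 genes had 18 probe sets, of 18194 genes and 34958 probe sets with 1 symbol on the array. Total RNA was isolated with RNAzol, labelled with biotin and hybridised in duplicate to an Affymetrix oligonucleotide array that covers the mouse genome. Both arrays, called array 1 and array 2 after the data set numbers in their labels, belong to the same wild-type condition, with no mutant, treatment or second stage, so no groups were compared and no p-value was computed. The study worked with NMRI and C57/BL6 mice and does not give the strain of the arrays, and nothing in the labels says whether the duplicates came from separate embryos. Their spread may therefore be technical.

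Notch receptors are membrane proteins that are activated by ligands on a neighbouring cell. After ligand binding the receptor is cut by an ADAM protease and then by gamma-secretase, and the released intracellular domain enters the nucleus, where it joins Rbpj and a Mastermind protein and turns on genes such as those of the Hes and Hey families. In the embryo the pathway is known for keeping neural progenitors from differentiating too early, for the segmentation of the somites, and for the formation of arteries and of the wall cells around blood vessels.

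The deposited signal is an intensity on a linear scale, scaled on each array to a mean of 100 after the highest and lowest 2% of probe sets are left out. Olfactory, vomeronasal and taste receptor genes, 77 in all, were taken as silent, and the 95th percentile of their 86 probe sets served as the background bound of an array. This was a signal of 27.25 for array 1 and 33.78 for array 2, where the silent probe sets had median signals of 6.35 and 7.4. A gene is called above background where the bound was passed on both arrays, by the same probe set or by different ones. In these bulk samples few cells with much RNA and many cells with little cannot be told apart. A transcript whose signal is below the bound may still be present, and the signals of different probe sets are not on one scale, so the 9 genes were not ranked against each other. Markers of liver, muscle, cartilage, neurons, epidermis and red cells (Afp, Alb, Myog, Acta1, Col2a1, Tubb3, Krt5 and Hbb-y) were above background in 8 of 8 cases. Over all genes of the array the share was 65.8%.

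All 9 Notch receptor and ligand genes were above background on both arrays, beside 65.8% of the genes on the array. The share depends on the number of probe sets that read a gene. It was 48.9% for genes with 1 probe set, as Dll1 and Dll3 have, 76.3% for genes with 2, as Notch1, Notch2, Notch3, Dll4 and Jag2 have, and 87.4% for genes with 3, as Notch4 and Jag1 have. Of the 18 probe sets 14 were above the bound on both arrays, 7 of 9 for receptors and 7 of 9 for ligands, beside 55.8% of the probe sets with 1 symbol and 49.3% of all probe sets. The distance from the bound varied within the family. At least 1 probe set reached 2 times the bound on both arrays in 6 of the 9 genes (Notch1, Notch2, Notch3, Notch4, Dll1 and Jag1), whereas no probe set of Dll3, Dll4 or Jag2 did so. The share of all genes at that distance was not computed, so this count has no background beside it.

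**Figure D1:**
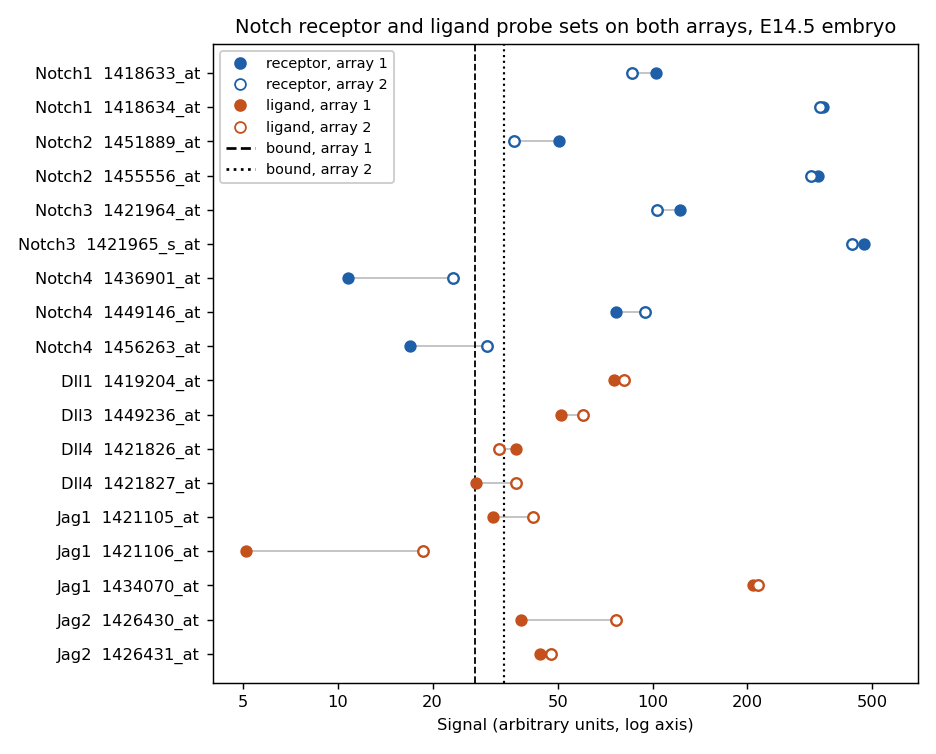
Signal of each of the 18 probe sets of the Notch receptor (blue) and ligand (orange) genes on array 1 (filled) and array 2 (open), on a log axis in arbitrary units. The vertical lines are the background bounds of array 1 (dashed, 27.25) and array 2 (dotted, 33.78); 14 probe sets lie above the bound of each array, and both probe sets of Dll4 lie next to the lines.

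Of the receptors, Notch1, which acts in neural progenitors, the somites, blood vessels and the thymus, had clear signals in both of its probe sets. The probe set 1418634_at gave 349.2 on array 1 and 341.2 on array 2 (345.2 ± 5.66, SD, n = 2 arrays), and 1418633_at gave 102.2 and 85.8. The lowest of these values was 2.54 times the bound of its array.

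Notch2, a widely used receptor with known roles in kidney, liver bile ducts and heart, had signals of 336.2 on array 1 and 318.8 on array 2 at 1455556_at (327.5 ± 12.3, SD, n = 2). Its other probe set, 1451889_at, gave 50.3 and 36.3, and the value on array 2 was 1.07 times the bound. With the bound at the 99th percentile, 33.64 on array 1 and 40.97 on array 2, this probe set was no longer above background, and 1455556_at carried the gene alone.

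Notch3, the receptor of pericytes and vascular smooth muscle, gave 471.2 on array 1 and 431.9 on array 2 at 1421965_s_at (451.55 ± 27.79, SD, n = 2). The ending _s_at marks a probe set that can also match other transcripts. The probe set 1421964_at, which carries no such mark, gave 122.0 and 103.4, or 4.48 and 3.06 times the bound, so that the gene was above background without the shared probe set as well. Markers of mural cells, the cells in which Notch3 is best known, were above background in 7 of 7 cases, beside 65.8% of all genes. Among them were Pdgfrb at 532.6 and 599.8, Cspg4 at 163.4 and 179.6 and Rgs5 at 115.6 and 70.9. Acta2, Rgs5 and Abcc9 also had probe sets that did not pass on both arrays, for Acta2 1444105_at with 1.9 and 1.2. What mural cells contributed to the Notch3 signal was not tested.

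Notch4, a receptor known mainly from endothelium, was above background through 1 of its 3 probe sets. The probe set 1449146_at gave 76.4 on array 1 and 94.8 on array 2 (85.6 ± 13.01, SD, n = 2), 2.8 and 2.81 times the bound. The probe sets 1436901_at, with 10.8 and 23.2, and 1456263_at, with 16.9 and 29.7, were below the bound on both arrays. Endothelial markers were above background in 8 of 8 cases, beside 65.8% of all genes. Among them were Kdr at 180.2 and 166.9, Tie1 at 76.3 and 73.7, Cdh5 at 66.8 and 62.1 and Pecam1 at 52.2 and 38.8. Cdh5, Flt1 and Sox17 each also had a probe set that did not pass on both arrays, for Cdh5 1422047_at with 13.3 and 12.3. What endothelium contributed to the Notch4 signal was not tested.

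Of the Delta-like ligands, Dll1, which signals between neural progenitors and in the presomitic mesoderm, gave 75.4 on array 1 and 81.4 on array 2 (78.4 ± 4.24, SD, n = 2) at its only probe set, 1419204_at. Dll3, a divergent family member that is known to act inside the signal-sending cell and not as an activating ligand, gave 51.2 and 60.3 (55.75 ± 6.43, SD, n = 2) at 1449236_at, or 1.88 and 1.79 times the bound. Both genes passed on both arrays with 1 probe set each, so that no second probe set could be set beside them.

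Dll4, the ligand of arterial endothelium and of the tip cells of growing vessels, lay at the bound. The probe set 1421826_at gave 36.9 on array 1 and 32.4 on array 2, which is 1.35 and 0.96 times the bound, and 1421827_at gave 27.5 and 36.9, or 1.01 and 1.09 times. The second passed on both arrays, on array 1 by 1.01 times the bound. With the bound at the 99th percentile Dll4 was not above background. It was not above background either when the sweet and umami taste receptors were left out of the silent genes, leaving 83 probe sets and a bound of 27.64 on array 1, and 1 probe set had to pass on both arrays. The call for Dll4 thus depended on where the bound was placed, which was so for none of the other 8 genes among the 5 bounds tried.

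Of the Jagged ligands, Jag1, known from the inner ear, bile ducts, heart outflow tract and vessel wall, had signals of 208.8 on array 1 and 216.2 on array 2 at 1434070_at (212.5 ± 5.23, SD, n = 2). The probe set 1421105_at was near the bound at 31.2 and 41.8, and 1421106_at was below it at 5.1 and 18.7. The gene was therefore carried by 1 probe set well above the bound and 1 close to it.

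Jag2, a ligand of limb, craniofacial and thymus development, gave 44.0 on array 1 and 47.4 on array 2 at 1426431_at (45.7 ± 2.4, SD, n = 2), 1.61 and 1.4 times the bound. At 1426430_at the arrays disagreed, with 38.3 on array 1 and 76.4 on array 2 (57.35 ± 26.94, SD, n = 2). Both probe sets stayed above both bounds.

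Probe sets on both sides of the bound were found in 3 of the 7 family genes with more than 1 probe set (Notch4, Dll4 and Jag1). Over the whole array, of the genes with more than 1 probe set and at least 1 above background, 64.2% also had a probe set that was not. Every probe set was above the bound in 6 of the 9 family genes (Notch1, Notch2, Notch3, Dll1, Dll3 and Jag2), beside 39.3% of all genes.

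The duplicates were then set against each other for the 14 family probe sets above background. Differences are log2 signals of array 2 minus array 1, centred on the median of all 22252 probe sets above the bound, which lay at 0.011. The family median was 0.07, with values from -0.48 for Notch2 at 1451889_at to 0.985 for Jag2 at 1426430_at, and the SD over all 22252 probe sets was 0.26. Of the 14, 1 differed by more than 1.5-fold, the Jag2 probe set 1426430_at, whereas the other Jag2 probe set, 1426431_at, lay at 0.10. Over the array 3.82% of the probe sets above background differed by as much, 2.64% being higher on array 2 as Jag2 was. The share was 6.6% for a mean signal of 30 to 100, the range of 9 of the 14 family probe sets, and 1.58% for 100 or more, the range of the other 5.

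Among the family probe sets above the bound, those of receptors and ligands leaned to opposite sides. Of 7 receptor probe sets 6 were lower on array 2, with a median of -0.14, and Notch4 was the exception at 0.30. All 7 ligand probe sets were higher on array 2 (6 of 7 after quantile normalization or loess), with a median of 0.23. With the bound at the 99th percentile the median over 5 ligand probe sets was 0.11. Without a filter, with a pseudocount of 16, 8 of 9 ligand probe sets were higher on array 2 and 6 of 9 receptor probe sets lower. Dll4 at 1421826_at, left out because it was under the bound of array 2, was lower there (36.9 and 32.4). All 5 family probe sets with a mean signal of 100 or more lay between -0.25 for Notch3 at 1421964_at and 0.04 for Jag1 at 1434070_at. Over the whole array 60.5% of the probe sets with a mean signal of 30 to 100 were higher on array 2, against 41.5% of those at 100 or more, with SDs of 0.305 and 0.207. Because the bound of array 2 was the higher one, a probe set under 33.78 on array 1 could pass only if it was higher on array 2, as the Dll4 probe set 1421827_at and the Jag1 probe set 1421105_at were. After a loess fit on signal the medians were -0.09 for the receptors and 0.16 for the ligands. The 3 receptor probe sets with a mean signal of 30 to 100 were split. Notch1 at 1418633_at (-0.26) and Notch2 at 1451889_at (-0.48) were lower on array 2, and Notch4 at 1449146_at (0.30) was higher. Whether receptors and ligands differed in their lean was not tested, nor was the part of signal strength in it. The 3 family probe sets that were below the bound on both arrays (2 of Notch4 and 1 of Jag1) were all higher on array 2, as were 62.5% of all such probe sets.

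**Figure D2:**
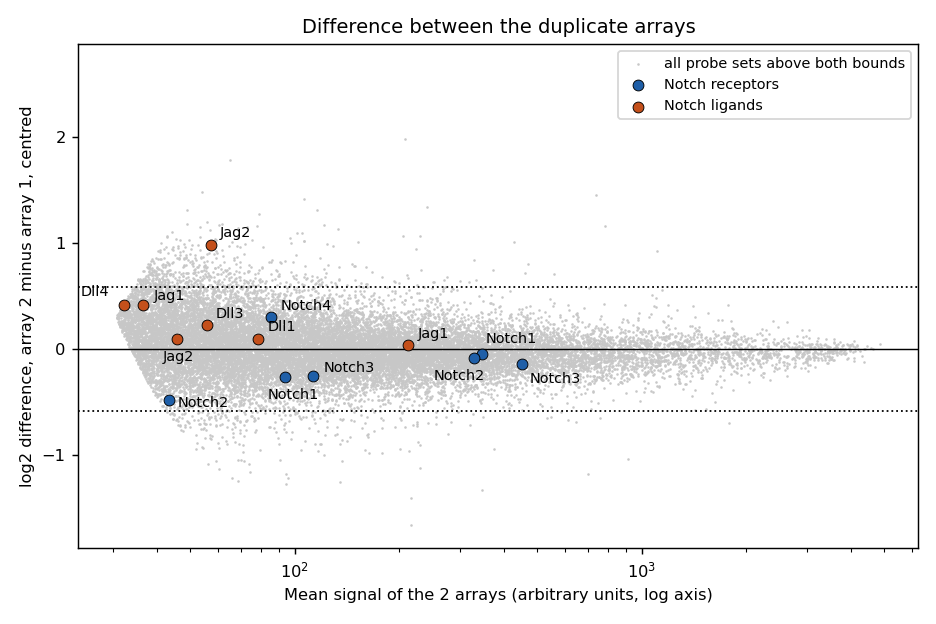
Difference between the duplicate arrays (log2 signal of array 2 minus array 1, centred) against the mean signal of the 2 arrays on a log axis, for all 22252 probe sets above both bounds (grey), the Notch receptors (blue) and the Notch ligands (orange). The dotted lines mark a difference of 1.5-fold, and Jag2 at 0.985 is the family point outside them.

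Of the other genes of the pathway, 48 were listed by role and 44 were measured, and 39 of these 44 (88.6%) were above background. This count is again to be read beside 65.8% of all genes. Each gene is given by its probe set with the highest mean signal.

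The ligand-like genes without the DSL domain that binds Notch were above background in 3 of 3 cases. Dlk1, an imprinted gene of precursor cells, had signals of 2913.8 on array 1 and 2624.5 on array 2, although this probe set ends in _s_at. The probe set of Dlk1 without that ending gave 59.7 and 61.6. Dner, a neuronal membrane protein, had 430.9 and 411.2 at a probe set ending in _x_at, a kind open to cross-hybridisation. Its probe set without that ending gave 316.4 and 227.9. Dlk2 had 53.2 and 57.5.

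The enzymes that add sugars to the receptor were above background in 5 of 5 cases. The fringe genes Lfng, Mfng and Rfng, whose products change which ligand a receptor answers to, had signals of 121.9 and 90.6, 98.0 and 91.6, and 216.8 and 247.9. The second probe set of Lfng gave 1.5 and 2.4. Genes for ligand endocytosis in the signal-sending cell passed in 4 of 4 cases, with the ubiquitin ligase genes Mib1 at 332.2 and 334.1, Mib2 at 105.6 and 127.6 and Neurl1a at 94.6 and 76.7. The last of these passed through 1 of its 6 probe sets. The only probe set of Mib2 ends in _s_at, and without probe sets ending in _s_at or _x_at 3 of the endocytosis genes passed.

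The proteases and gamma-secretase subunits were above background in 8 of 8 measured cases. Furin, which cuts the receptor on its way to the surface, had 120.7 and 144.7. Adam10, the protease of ligand-induced cleavage, had 987.9 and 1035.9 at 1 of its probe sets, and its 3 others gave between 2.5 and 51.8. Adam17 had 150.8 and 100.8 and passed through 2 of its 3 probe sets. The gene for the small gamma-secretase subunit Psenen had 763.4 and 737.2; it is an example chosen after its values were seen.

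Of the nuclear genes 4 of 6 measured were above background. Rbpj, the DNA-binding protein on which the pathway ends, had signals of 464.9 on array 1 and 488.1 on array 2, and all 3 of its probe sets passed. Its relative Rbpjl, known from the exocrine pancreas, was below the bound at 9.1 and 9.3. Maml1, a coactivator of the Mastermind family, had 298.5 and 312.9 and passed through 2 of its 3 probe sets. The probe set with these values ends in _s_at, and the other that passed gave 70.8 and 61.3. Maml2 was below the bound at 2.5 and 4.7. Spen, a corepressor that binds Rbpj, was above the bound on both arrays, with 167.3 on array 1 and 96.6 on array 2, a difference of more than 1.5-fold.

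Genes for receptor trafficking and turnover passed in 8 of 8 cases. The Notch inhibitor Numb had signals of 206.2 and 241.8, its relative Numbl 115.0 and 109.3, and the ubiquitin ligase Itch 65.1 and 91.7. Numb passed through 1 of its 2 probe sets and Itch through 1 of its 4.

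Of the Hes and Hey family with Nrarp, 7 of 10 genes were above background. Hes1, a repressor of differentiation in many progenitors, had 82.0 on array 1 and 78.9 on array 2. Hes5, the Notch target of neural progenitors, was read by 2 probe sets that behaved differently: 1423146_at gave 50.2 and 47.4, and 1456010_x_at, of a kind open to cross-hybridisation, gave 61.2 and 110.4. Markers of neural progenitors were above background in 6 of 6 cases, beside 65.8% of all genes, with Sox2 at 416.2 and 421.6. Sox1, Msi1 and Nes also had probe sets that did not pass on both arrays, for Sox1 1422205_at with 1.5 and 3.1. The exceptions of the Hes and Hey list were Hes2 at 7.8 and 9.9, Hes3 at 6.1 and 15.4, and Hes7 at 12.6 and 7.3. Hes7 is the oscillating gene of the segmentation clock. Hey2, an arterial and cardiac gene, was near the bound at 34.3 and 38.2 and was lost with the bound at the 99th percentile. Nrarp, a feedback inhibitor of the pathway, had 305.7 and 305.0.

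**Figure D3:**
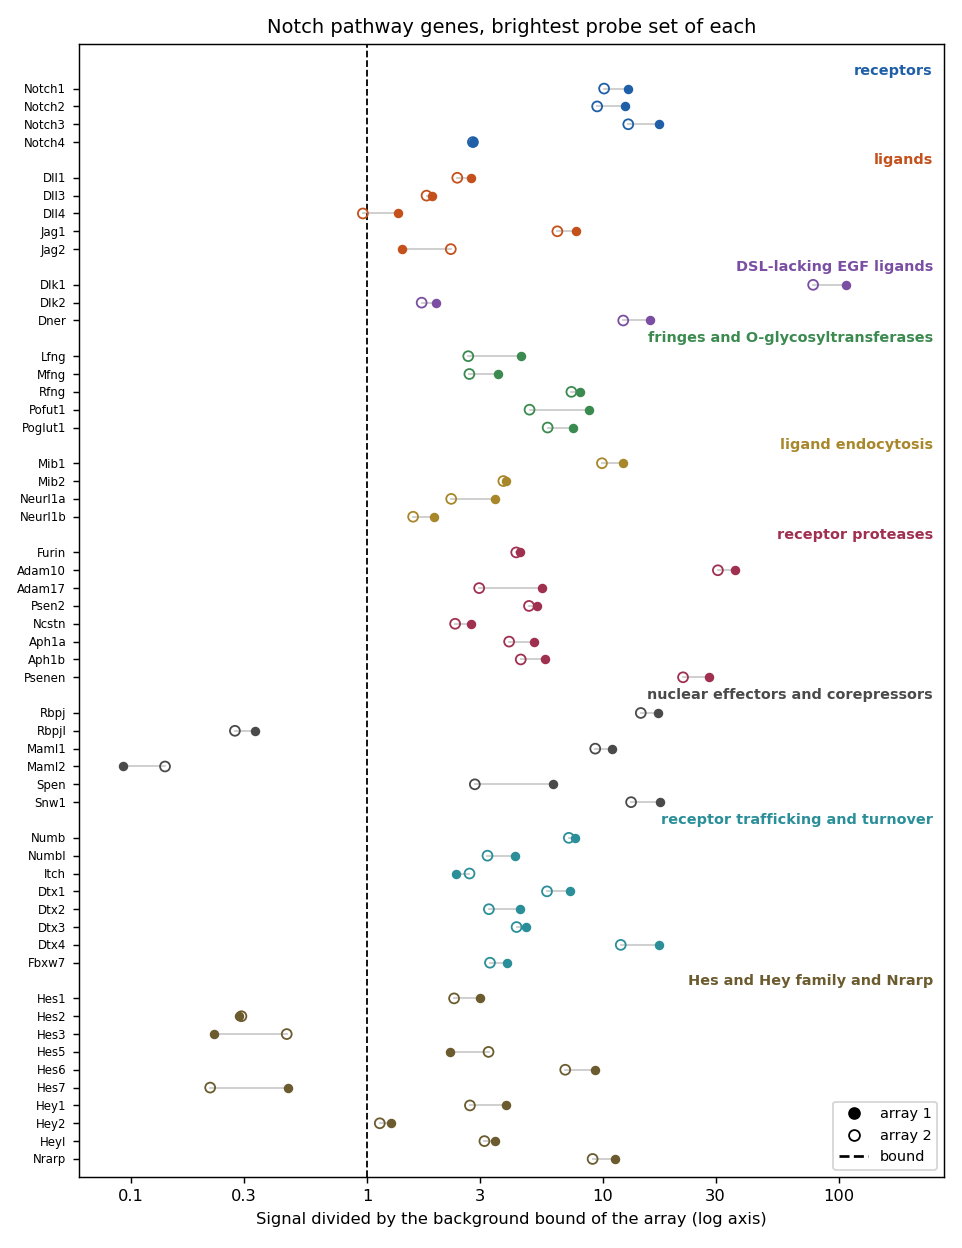
Signal of the brightest probe set of each Notch pathway gene, divided by the background bound of its array, on array 1 (filled) and array 2 (open), on a log axis with genes grouped by role. The dashed line is the bound; of the 44 genes outside the receptor and ligand groups, 39 were above background, and Rbpjl, Maml2, Hes2, Hes3 and Hes7 lie left of the line on both arrays.

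The bases around the start of each gene (250 before and 50 after, from RefSeq, build GRCm38.p6) show a further way in which the family members differ. The table used held 10 windows for the 9 family genes, with 2 for Dll1. The number of CpG dinucleotides in a window ranged from 5 for Notch4 to 63 for Jag2, with a median of 22.5, beside a median of 16 over the 18110 windows of genes named on the array. Windows with 10 or fewer CpG made up 37.4% of those 18110 and 24.4% of the windows of genes above background. Notch4 alone of the family had such a window. Notch2 had 41, Notch3 25, Notch1 23, Jag1 22, Dll4 17 and Dll3 11, and the 2 windows of Dll1 had 24 and 15. Over the array, windows of genes above background held a median of 20 CpG and those of genes that were not a median of 6. The windows of Notch2 and Notch4 are shown because they hold the most and the fewest CpG among the receptors, with each CpG in capitals.
Notch2 chr3:98013288-98013587, + strand: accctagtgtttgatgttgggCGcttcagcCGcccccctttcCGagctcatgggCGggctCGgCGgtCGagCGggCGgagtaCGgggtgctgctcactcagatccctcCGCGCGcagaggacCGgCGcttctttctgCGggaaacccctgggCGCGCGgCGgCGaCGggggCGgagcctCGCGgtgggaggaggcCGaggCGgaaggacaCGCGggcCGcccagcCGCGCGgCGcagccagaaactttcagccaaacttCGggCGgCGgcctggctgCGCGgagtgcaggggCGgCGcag
Notch4 chr17:34564045-34564344, + strand: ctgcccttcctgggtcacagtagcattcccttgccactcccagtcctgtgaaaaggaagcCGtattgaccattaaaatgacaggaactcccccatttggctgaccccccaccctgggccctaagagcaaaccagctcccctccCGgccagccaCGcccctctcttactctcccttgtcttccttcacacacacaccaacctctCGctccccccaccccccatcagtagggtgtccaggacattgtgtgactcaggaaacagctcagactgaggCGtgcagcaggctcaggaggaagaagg

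**Figure D4:**
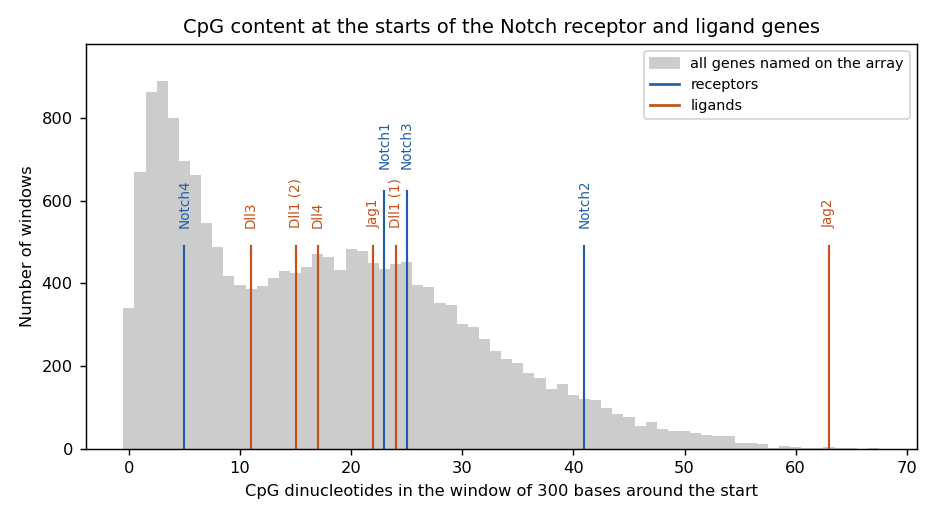
Number of CpG dinucleotides in the window of 300 bases around the start of each Notch receptor (blue) and ligand (orange) gene, over the distribution for 18110 windows of genes named on the array (grey, number of windows). Notch4 lies lowest at 5 and Jag2 highest at 63; Dll1 has 2 windows, labelled 1 and 2.

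The same windows were searched on both strands for TGGGAA, the core of the sequence that Rbpj binds, and for the longer GTGGGAA, which contains it. No window of the 9 receptor and ligand genes held TGGGAA, which was found in 24.2% of the windows of genes named on the array. Of the Hes and Hey list, 6 windows of 5 genes were available. Those of Hes5, Hes7 and Hey2 held GTGGGAA, which was found in 6.33% of the windows of genes named on the array. Both windows of Hes6 and that of Nrarp held neither TGGGAA nor GTGGGAA. Hes1, Hes2, Hes3, Hey1 and Heyl had no window. Hes5 and Hey2 held 2 matches each, 1 on either strand, and Hes7 held 1. A match is a stretch of letters and not a bound site. Hes5 and Hey2 were above background, as were Hes6 and Nrarp, and Hes7 was not. The windows of Hes5 and Hey2 are shown because each holds 2 matches, in capitals, read as GTGGGAA or as its reverse complement TTCCCAC.
Hes5 chr4:154960673-154960972, + strand: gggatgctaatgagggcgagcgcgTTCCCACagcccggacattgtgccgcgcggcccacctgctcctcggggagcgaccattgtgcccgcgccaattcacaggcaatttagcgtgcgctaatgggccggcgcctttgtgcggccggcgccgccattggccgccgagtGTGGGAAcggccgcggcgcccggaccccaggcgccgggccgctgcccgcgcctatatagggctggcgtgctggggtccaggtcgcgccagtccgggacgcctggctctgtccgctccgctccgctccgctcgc
Hey2 chr10:30842734-30843033, - strand: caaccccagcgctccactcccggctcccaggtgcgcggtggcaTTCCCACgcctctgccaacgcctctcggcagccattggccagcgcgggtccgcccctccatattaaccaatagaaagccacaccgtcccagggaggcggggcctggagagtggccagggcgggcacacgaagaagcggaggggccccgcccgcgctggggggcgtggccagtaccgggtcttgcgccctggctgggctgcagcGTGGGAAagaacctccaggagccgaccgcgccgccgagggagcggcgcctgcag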

How the data were processed

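The 2 duplicate arrays measured total RNA of wild-type embryos at E14.5. GCOS 1.3, named in the submitters' processing notes, was the authors' software, and the deposited table holds its linear signal intensity for 45101 probe sets per array. Settings of that software are not given in the sources used here, and the detection calls were not used here. Precision is limited by the number of arrays.

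Of the probe sets 34958 paired with 1 symbol, 932 with several and 9211 with none in the annotation used. Symbols were updated through gene identifiers in RefSeq of GRCm38.p6 for 34754 of them. The array files name no genome build, so gene coordinates were not assigned to probe sets. Promoter windows came from RefSeq for 14453 measured genes; all 9 family genes matched, and 5 of the 10 genes of the Hes and Hey list. Protein features were planned and not analysed here. Some listed genes are not reported here. A second array of the same condition allows no test between groups.

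The members, gene lists and rules were chosen with earlier results of these data known. The text names all 9 members with every probe set and, for each pathway list, the first 3 measured genes, the exceptions where 5 or fewer, and genes whose shown probe set differed by more than 1.5-fold between the arrays. Other names, the motif letters and the CpG counts were chosen after values were seen. Tried as alternatives were a bound at the 90th percentile, the 99th percentile or the array median, stricter gene calls, removal of probe sets ending in _s_at or _x_at, each array alone, and, for array differences, no centring, quantile normalization, loess (span 0.3) and no filter with a pseudocount of 16. The steps were tested on simulated arrays. Tools were Python 3.11.15 with numpy 2.4.6, pandas 2.3.3, statsmodels 0.14.6, scipy 1.17.1 and matplotlib 3.10.9.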

Additional observations from a re-analysis of the deposited data

How the results depend on the processing

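The count of family genes above background was 9 under 7 of the 10 alternatives; it was 8 with the 99th percentile bound, 8 when 1 probe set had to pass on both arrays and the sweet and umami taste receptors were left out of the silent genes, and 6 when every probe set had to pass. The last 2, and the bound without those taste receptors alone, were added after seeing the data. Dll4 was the gene lost in the first 2, and Dll4, Notch4 and Jag1 in the last. The number of all genes above background was 7157 when every probe set had to pass, since this call is harder for genes with several probe sets, and 12175 to 12653 with either array alone. Family probe sets above background numbered 11 to 15, and 14 to 15 with either array alone. The pathway lists gave 28 when every probe set had to pass and 38 or 39 otherwise. Family probe sets differing by more than 1.5-fold between the arrays were 2 with loess, where Notch2 at 1451889_at joined Jag2, and 2 without a filter, where the dim Jag1 probe set 1421106_at entered. The family median difference stayed between 0.034 and 0.099. No paired analysis was possible because both arrays belong to 1 group.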

Other observations

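Lists of other cell types in which the family is known to act were divided. Their counts are to be read beside 65.8% of all genes above background. Of 4 measured proneural genes, whose products are known to activate Delta-like ligand genes, only Neurog2 was above background. It gave 71.9 on array 1 and 78.3 on array 2. Neurog1 and Neurod4 were below the bound on both arrays, and Atoh1, at 31.7 and 26.5, passed on array 1 alone. By in situ hybridization the study found Neurog1 and Neurod4 expressed in the cortex at E14.5. A signal below the bound thus does not mean that the transcript is absent. Of 5 measured genes of the presomitic mesoderm, the tissue that forms somites earlier in development, 2 passed close to the bound, Mesp2 at 31.0 and 35.5 and Msgn1 at 29.6 and 41.2, and Tbx6 (26.6 and 26.0), Ripply2 (7.3 and 2.8) and Cer1 (16.5 and 9.3) did not. The 2 measured placental genes, Tpbpa and Ctsq, had signals from 0.8 to 5.8.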
